A study of Rattus norvegicus with 48 samples.

Results

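Lung RNA of rats that had breathed oil vapor or filtered air was examined for 7 genes of the tight junction. The genes were the claudins Cldn18, Cldn3, Cldn4, Cldn7 and Cldn5, the membrane protein gene Ocln (occludin) and the scaffold gene Tjp1 (ZO-1). They were chosen by symbol, and all 7 were found among the 30045 genes of the deposited count tables. RNA sequencing was done on a piece of lung from 48 male Sprague-Dawley rats, in 8 groups of 6 animals with 1 library per animal. Oil vapor was given by whole-body inhalation at 300 ppm for 6 h per day, either on 4 days per week for 4 weeks (repeated exposure, 16 exposure days) or on 1 day (single exposure), and control rats breathed filtered air on the same schedules. Lungs were taken 28 days or 1 day after the last exposure. The groups were therefore repeated oil vapor and repeated air at 28 days and at 1 day, and single oil vapor and single air at 28 days and at 1 day. The labels give no age, and each schedule has a deposited table of its own.

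Tight junctions seal the space between neighbouring epithelial or endothelial cells and set which ions and solutes can pass. Claudins span the membrane and bind claudins of the next cell, occludin runs beside them, and ZO-1 ties them to actin inside the cell. In the lung, Cldn18 is known as a claudin of alveolar epithelium, where mice that lack it have leaky and enlarged alveoli. Cldn3, Cldn4 and Cldn7 are other epithelial claudins of the airways and alveoli, and Cldn5 is the main claudin of blood vessel endothelium.

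The start regions of 3 members are shown because Cldn18 was the member that differed between groups, and because Cldn3 and Cldn7 varied together between animals. Each holds 250 bases before and 50 bases after the annotated gene start, from RefSeq on the assembly GRCr8, 5′ to 3′ on the gene's strand. Entries were matched for 6 of the 7 members; Cldn4 was not matched. The Cldn18 window lies at chr8:109144570-109144869 on the minus strand, the Cldn3 window at chr12:27346498-27346797 on the minus strand, and the Cldn7 window at chr10:55188420-55188719 on the plus strand. Capitals mark the E-box CAGGTG, to which repressors and activators of epithelial genes bind, and the GC box GGGCGG, a promoter element bound by Sp factors, each on either strand.
Cldn18: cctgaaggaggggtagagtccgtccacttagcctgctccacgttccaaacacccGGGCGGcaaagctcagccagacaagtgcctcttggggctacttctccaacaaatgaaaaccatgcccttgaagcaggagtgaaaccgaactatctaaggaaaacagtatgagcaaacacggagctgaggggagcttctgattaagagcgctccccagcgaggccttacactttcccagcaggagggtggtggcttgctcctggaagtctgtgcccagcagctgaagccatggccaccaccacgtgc
Cldn3: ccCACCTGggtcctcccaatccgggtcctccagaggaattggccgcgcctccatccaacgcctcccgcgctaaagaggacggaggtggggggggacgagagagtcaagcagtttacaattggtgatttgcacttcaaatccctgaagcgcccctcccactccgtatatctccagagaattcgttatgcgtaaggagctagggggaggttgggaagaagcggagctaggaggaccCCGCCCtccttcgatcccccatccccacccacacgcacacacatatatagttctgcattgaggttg
Cldn7: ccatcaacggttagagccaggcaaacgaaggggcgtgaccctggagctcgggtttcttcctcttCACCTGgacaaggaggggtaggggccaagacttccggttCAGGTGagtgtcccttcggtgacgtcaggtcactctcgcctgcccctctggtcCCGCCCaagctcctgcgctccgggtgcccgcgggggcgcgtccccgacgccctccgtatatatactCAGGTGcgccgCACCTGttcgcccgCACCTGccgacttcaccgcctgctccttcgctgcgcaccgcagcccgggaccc
The Cldn18 window held 1 GC box and no E-box, and the Cldn3 window held 1 of each. The Cldn7 window held 1 GC box and 5 E-boxes, of which 2 lay before its GC box. Of 33469 RefSeq start windows of the same length, 33.1% held the GC box and 18.8% the E-box. The letters CTCAAG, the core bound by the lung factor Nkx2-1, and TATAAA were in none of these 3 windows, against 15.8% and 14.2% of all windows. No searched motif overlapped another in these windows. G and C made up 56.3% of the Cldn18 window, 58% of the Cldn3 window and 67% of the Cldn7 window, where the median over all windows was 51.7%. These are matches of letters, not measured binding sites.

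Levels are given as counts-per-million (CPM), relative to the total count of the library. Library totals ranged from 1.54 to 7.16 M counts, so a count of 3 corresponded to 0.419 to 1.95 CPM. In the RefSeq table for GRCr8, Cldn18 and Ocln each overlap 1 other gene and Tjp1 overlaps 3, and whether reads were counted by strand is not given, so the counts of these members could hold or lack shared reads. All 7 members had counts in 48 of 48 libraries and passed the filter on low counts, but Cldn4 had only 2 to 35 counts per library, close to that floor. Markers of lung cells were present in every group, with summed levels of 2556 to 5910 CPM for 8 genes of alveolar type 1 cells, the thin cells of gas exchange, 6730 to 20018 CPM for 10 genes of surfactant-making type 2 cells and 2370 to 5561 CPM for 12 endothelial genes. The lowest of each of these sums came from animal 43 of the repeated oil vapor group at 1 day. That library was the shallowest and held 42500 CPM of 7 erythroid genes, against at most 13900 CPM in every other library. It also held the lowest value of all 48 libraries for 6 of the 7 members, the exception being Cldn4, and the results of Cldn18 and the contrasts of the other members with air in that group are given with and without it. Without it, edgeR called 32 genes in place of 1 for oil vapor against air at 1 day after repeated exposure, and 156 in place of 45 for 28 against 1 day in repeated oil vapor lungs. Between the schedules, animals with the same place in the numeric order of matching groups were alike in the erythroid transcript Alas2, whose log2 counts less the group mean had r = 0.997 over 24 such animal pairs. The members had r = 0.296 to 0.455 over the same pairs, with permutation p adjusted over the 7 members of at least 0.233. The likeness was not confined to Alas2. In air lungs at 28 days, the highest liver sums of both schedules came from such a pair (797 CPM in animal 17, 929 CPM in animal 82). So did the highest cardiac muscle sums (1154 CPM in animal 19, 1160 CPM in animal 84). In oil vapor lungs at 1 day, the highest erythroid sums came from the pair of animals 5 and 43. Marker sums were not tested over the pairs. Tests between schedules treat these libraries as independent. The labels do not pair these animals. With the 24 pairs as a block, an alternative added after this likeness was seen, no member's call changed, and the values are given beside the tests. In whole tissue, fewer cells of a type and less RNA per cell cannot be told apart.

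Cldn18 was the member that changed. After repeated exposure it was higher at 28 days than at 1 day, in oil vapor lungs and in air lungs alike. In repeated oil vapor lungs it had 369, 432 and 506 CPM (lowest, median and highest) at 28 days, against 173, 318.5 and 334 CPM at 1 day. All 6 animals at 28 days lay above all 6 at 1 day, and animal 43 was the lowest. The log2 fold change, in which 1 stands for a doubling, was 0.53 (standard error, SE, 0.11), and Cldn18 rose in the quasi-likelihood test of edgeR, whose p was adjusted over all tested genes by the Benjamini-Hochberg method (adjusted p = 0.0363, with a threshold of 0.05). Without animal 43 the log2 fold change was 0.48 (adjusted p = 0.0297). In repeated air lungs Cldn18 had 289, 331 and 470 CPM at 28 days, against 233.5, 248 and 258 CPM at 1 day. These groups did not overlap either, and Cldn18 varied least in the air lungs at 1 day among the 8 groups, with a mean of 246 ± 10.4 CPM (SD, n = 6). Here too Cldn18 rose, by a log2 fold change of 0.58 (SE 0.11, adjusted p = 0.0207). In every comparison with time, age, which the labels do not give, cannot be told apart from days after the last exposure.

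**Figure D1:**
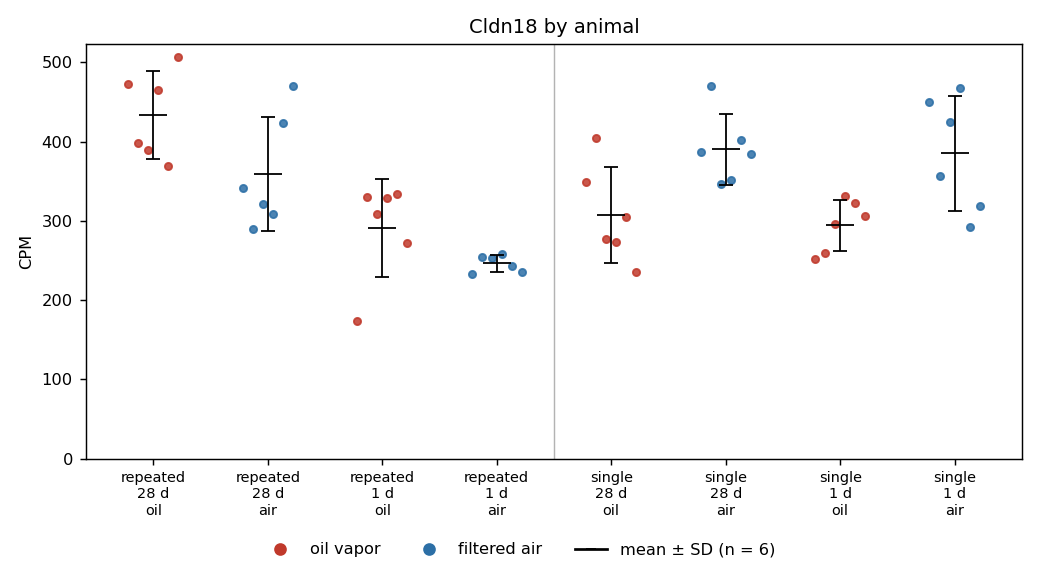
Cldn18 in CPM (vertical axis) in each animal, by exposure schedule, days after the last exposure and treatment (horizontal axis), with points for oil vapor and filtered air and bars for the mean ± SD of 6 animals. The repeated groups at 28 days lie above those at 1 day of the same treatment, oil vapor lies above air in 5 of 6 animals at 1 day after repeated exposure, and single oil vapor groups have lower means than single air groups.

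Of the 7 members, Cldn18 was the 1 called in each of these comparisons, where 0.3% of 15005 genes were called in oil vapor lungs (0.207% higher and 0.0933% lower) and 0.327% in air lungs (0.273% higher and 0.0533% lower). With library totals alone, 12 genes were called higher and 3 lower in oil vapor lungs, and 3 higher and 0 lower in air lungs. The calls lay close to the threshold. In oil vapor lungs the call was lost without any 1 of animals 44, 45, 48, 89, 92, 93 and 96 (adjusted p = 0.0516 to 0.0887), with scaling by library totals alone in place of TMM factors, which correct for the composition of a library, (adjusted p = 0.0699), and with only the 12 libraries compared (adjusted p = 0.124). In air lungs it was lost without any 1 of animals 36, 37, 38, 87 and 88 (adjusted p = 0.0551 to 0.0679) and with library totals (adjusted p = 0.131). The direction was kept in each case.

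After single exposure Cldn18 was not called with time. Single oil vapor lungs had 235, 291 and 405 CPM at 28 days, against 252, 301 and 331 CPM at 1 day. Single air lungs had 346, 385 and 470 CPM at 28 days, against 293, 391 and 468 CPM at 1 day. The groups overlapped almost wholly, and the log2 fold changes were 0.05 (SE 0.12, adjusted p = 0.846) in oil vapor and 0.04 (SE 0.12, adjusted p = 0.932) in air lungs. Animal 32, whose description names the table of the other schedule, held the lowest value of the oil vapor group at 28 days, and without it the log2 fold change with time was 0.12 (adjusted p = 0.593). The change with time differed between schedules by 0.51 (SE 0.12, adjusted p = 0.00833), repeated minus single and averaged over oil vapor and air. This test was added after the values were seen, and 4.56% of 15322 genes passed it (2.52% higher and 2.04% lower). With the block on animal pairs the difference was 0.50 (adjusted p = 0.0122). At 1 day, all 6 repeated air lungs (at most 258 CPM) lay below all 6 single air lungs (at least 293 CPM). Schedule, age and deposited table cannot be told apart in that difference between air groups, which was not tested.

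Marker genes of lung cells and of other tissues were examined beside this change. In repeated oil vapor lungs, 8 of 8 alveolar type 1 genes had higher values at 28 than at 1 day (median log2 fold change 0.22, against -0.02 over all genes), and 1 of them, Pdpn, which codes for podoplanin, rose (0.39, SE 0.08, adjusted p = 0.0354). Their sum was 5417 to 5910 CPM at 28 days, against 2556 to 5481 CPM at 1 day. The 2556 CPM were those of animal 43, and the group medians were 5690 and 5034 CPM. The counts and medians of oil vapor lungs in this paragraph include animal 43. The 10 type 2 genes also had values above 0, with a median of 0.27, but 0 passed. Animals 43 and 44 held type 2 sums of 6730 and 9967 CPM at 1 day. The group medians were 19243 CPM at 28 days and 15478 CPM at 1 day. In repeated air lungs 6 of 8 type 1 genes (median 0.14) and 8 of 10 type 2 genes (median 0.12) had values above 0, and 0 passed. Endothelial genes had values above 0 for 9 of 12 genes (median 0.06) in oil vapor and 8 of 12 (median 0.03) in air lungs. Of 6 genes of the mesothelium, the cell layer that covers the lung, 4 rose in oil vapor lungs (median 1.42), while in air lungs 6 of 6 had values above 0 (median 0.81) and 0 passed. Their sum was 255 to 381 CPM at 28 days, against 102 to 244 CPM at 1 day, in oil vapor lungs. The 102 CPM were those of animal 43, and the group medians were 303 and 218 CPM. Erythroid genes had values below 0 for 7 of 7 genes in oil vapor lungs (median -3.47), where animal 43 stood at 1 day, and above 0 for 6 of 7 in air lungs (median 0.39). Liver genes had values below 0 for 5 of 6 genes in oil vapor lungs (median -4.04, 1 passed) and above 0 for 6 of 6 in air lungs (median 2.26, 0 passed). The highest liver sums were 954 CPM in oil vapor animal 43 at 1 day and 929 CPM in air animal 82 at 28 days. Group medians of the liver sum at 28 days and 1 day were 79 and 234 CPM in oil vapor and 114 and 90 CPM in air lungs. In the difference between schedules, 4 of 6 mesothelial genes also passed (median 1.03), as did 1 of 8 type 1 genes, downward (median 0.06), and 1 of 12 endothelial genes, upward (median 0.03), but 0 of 10 type 2 genes (median 0.16). No gene of these lists was at 0 in any group, and their part in the change of Cldn18 was not tested.

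The 6 other members gave no call with time. Cldn3 had 33.9, 40.5 and 43.8 CPM in repeated oil vapor lungs at 28 days, against 15.6, 35.5 and 40.9 CPM at 1 day, where animals 43 and 44 were the 2 low values. The groups overlapped, and the log2 fold change was 0.29 (SE 0.16, adjusted p = 0.39). In repeated air lungs it was 0.05 (SE 0.16). Cldn7 had values of 0.17 (SE 0.14) in oil vapor and 0.14 (SE 0.14) in air lungs after repeated exposure, and 0.05 (SE 0.15) in oil vapor and -0.16 (SE 0.16) in air lungs after single exposure. Cldn4 ranged from -0.40 (SE 0.27, single air) to 0.21 (SE 0.32, repeated oil vapor), and none of these passed. Cldn5, the endothelial member, had 222, 294 and 444 CPM in single oil vapor lungs at 28 days, against 233, 259 and 316 CPM at 1 day. The spread was wider at 28 days, where 2 animals stood at 413 and 444 CPM. The log2 fold change was 0.25 (SE 0.13, adjusted p = 0.234), with 0.18 (SE 0.13) in single air, -0.02 in repeated oil vapor and -0.03 in repeated air lungs (SE 0.15 in both).

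Ocln and Tjp1 had the smallest standard errors. In single air lungs Ocln had 76.7, 79.0 and 88.1 CPM at 28 days, against 69.2, 77.2 and 78.9 CPM at 1 day, a log2 fold change of 0.11 (SE 0.05, adjusted p = 0.304). Among the members, only Ocln had an unadjusted p below the threshold in a single-exposure time comparison, and only in air lungs. Tjp1 had log2 fold changes of 0.08 in repeated oil vapor, 0.07 in repeated air, 0.10 in single oil vapor and 0.11 in single air lungs (SE 0.06 in each). By edgeR, DESeq2 and limma-voom, 0 of 7 members were called in either single-exposure time comparison. The share of all genes called there was 9.43% of 14820 in oil vapor lungs (4.45% higher and 4.98% lower) and 3.25% in air lungs (1.01% higher and 2.24% lower).

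**Figure D2:**
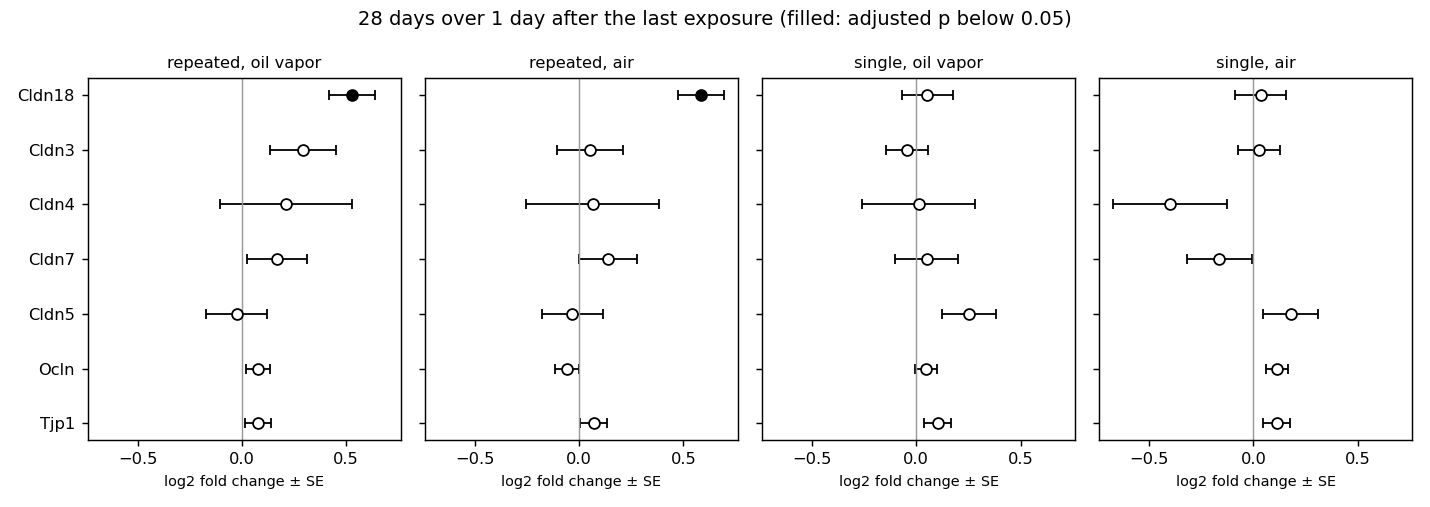
Log2 fold change at 28 days over 1 day after the last exposure (horizontal axis, ± SE) for the 7 members (vertical axis), with a panel for each schedule and treatment; filled points passed the test. The filled points are Cldn18 after repeated exposure, at 0.53 in oil vapor and 0.58 in air, and the widest bars belong to Cldn4.

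The design sets oil vapor against air at each time and schedule, and no member passed in any of these 4 comparisons. Cldn18 came nearest, with values that pointed opposite ways on the 2 schedules. At 1 day after repeated exposure it had 173, 318.5 and 334 CPM in oil vapor lungs, against 233.5, 248 and 258 CPM in air lungs. The oil vapor animals other than animal 43 had at least 272 CPM and lay above all air animals. The log2 fold change was 0.31 (SE 0.11, adjusted p = 0.37), and 0.35 (adjusted p = 0.122) without animal 43. At 28 days after repeated exposure it had 369, 432 and 506 CPM in oil vapor lungs, against 289, 331 and 470 CPM in air lungs. The groups overlapped, with a log2 fold change of 0.25 (SE 0.11, adjusted p = 0.984).

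After single exposure the values of Cldn18 were lower in oil vapor lungs. At 1 day it had 252, 301 and 331 CPM in oil vapor, against 293, 391 and 468 CPM in air lungs. Of the air animals, 4 lay above all oil vapor animals, and the log2 fold change was -0.38 (SE 0.12, adjusted p = 0.357). At 28 days it had 235, 291 and 405 CPM in oil vapor, against 346, 385 and 470 CPM in air lungs, where 4 of 6 oil vapor values were under the lowest air value. The log2 fold change was -0.37 (SE 0.12, adjusted p = 0.434), and -0.29 (adjusted p = 0.623) without animal 32. In each of the 4 comparisons, 0 of 7 members were called by edgeR, DESeq2 or limma-voom, and Cldn18 was the 1 member whose unadjusted p in edgeR lay below the threshold. At 1 day after repeated exposure, 7 of 7 erythroid genes (median 2.12), 6 of 6 neutrophil genes (median 0.76) and 5 of 6 liver genes (median 3.11) had values above 0. Animal 43 held sums of 42500, 775 and 954 CPM for these lists. The group medians of the sums were 3250, 147 and 234 CPM in oil vapor and 2468, 135 and 90 CPM in air lungs. At 28 days after single exposure 7 of 7 erythroid and 6 of 6 liver genes had values below 0 (medians -2.23 and -3.53). There, air animal 17 held a liver sum of 797 CPM, against a median of 104 CPM in its group. In both comparisons 0 genes of these lists were called. Among all genes edgeR called 0% at 28 days and 0.00666% (1 gene) at 1 day after repeated exposure and 0% at both times after single exposure, with 711 to 1494 genes under the threshold before adjustment.

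The difference between the schedules was tested directly. Repeated minus single, the oil vapor effect on Cldn18 differed by 0.62 (SE 0.17, adjusted p = 0.891) at 28 days and by 0.69 (SE 0.17, adjusted p = 0.111) at 1 day on the log2 scale. Neither passed, where 0% of 15322 genes were called at 28 days and 0.0457% at 1 day, although at 1 day it passed with DESeq2 (adjusted p = 0.0231) and without animal 43 (adjusted p = 0.0484). Averaged over both times, a test added after these values were seen, the difference was 0.66 (SE 0.12, adjusted p = 0.00378). That was the gene ranked 7 of 15322 by p, in a comparison that called 57 genes (0.372%). It kept its call in each of 5 other settings (0.62 to 0.68, adjusted p = 9.0e-05 to 0.019) and without each of the 48 animals in turn (0.62 to 0.70, adjusted p = 6.9e-04 to 0.00848). With the block on animal pairs it was 0.66 (adjusted p = 0.00648), and the differences at 28 days (adjusted p = 0.577) and 1 day (adjusted p = 0.136) did not pass there either. The adjusted p of the other members in this averaged test was at least 0.791. At 1 day the mean of Cldn18 was 291 and 294 CPM in repeated and single oil vapor lungs, but 246 and 385 CPM in repeated and single air lungs. At 28 days it was 434 and 307 CPM in oil vapor and 359 and 390 CPM in air lungs. Schedule, age and deposited table cannot be told apart in these levels. The mean over the 4 pairs of groups, whose values had opposite signs on the schedules, was -0.05 for Cldn18 (SE 0.06, adjusted p = 0.989). In that mean 0 of 7 members were called by edgeR, DESeq2 or limma-voom, 0 lay under the threshold before adjustment, and 0.0392% of all genes were called.

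In the averaged schedule difference, 2 of 8 type 1, 4 of 10 type 2 and 8 of 12 endothelial genes had values above 0, with medians of -0.05, -0.03 and 0.04. Values above 0 were also found for 7 of 7 erythroid (median 0.89) and 6 of 6 neutrophil genes (median 0.33). Values below 0 were found for 6 of 6 mesothelial genes (median -0.26), and 0 genes of any of these lists passed. Animal 43 entered this difference with sums of 42500 erythroid, 775 neutrophil and 102 mesothelial CPM. The medians of its group were 3250, 147 and 218 CPM. At 1 day after repeated exposure, 7 of 8 type 1 and 9 of 10 type 2 genes had values below 0 for oil vapor over air (medians -0.14 and -0.10), where Cldn18 had one above 0. Animal 43 held sums of 2556 CPM for type 1 and 6730 CPM for type 2 genes, and animal 44 held 9967 CPM for type 2. The group medians of these sums were 5034 and 15478 CPM in oil vapor and 5191 and 15997 CPM in air lungs. After single exposure, the medians of the type 1, type 2 and endothelial lists lay between -0.01 and 0.05 at both times. The part of any list in the difference of Cldn18 was not tested.

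The other epithelial claudins had values between -0.42 and 0.21 against air, and none passed. Cldn3 was at 0.21 (SE 0.16) at 28 days and -0.03 (SE 0.16) at 1 day after repeated exposure, and at 0.02 and 0.09 (SE 0.10 each) at 28 days and 1 day after single exposure. Without animal 43, the value at 1 day after repeated exposure was 0.03 for Cldn3, 0.09 for Cldn4, 0.18 for Cldn5, 0.01 for Cldn7 and 0.05 for Tjp1, and none passed. Cldn7 lay between -0.05 and 0.19 (SE 0.14 to 0.16), and Cldn4 between -0.42 (SE 0.27) and 0.20 (SE 0.31). Cldn5 was at 0.06 and 0.05 (SE 0.15 each) at 28 days and 1 day after repeated exposure and at 0.11 and 0.04 (SE 0.13 each) after single exposure.

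Ocln was the member that varied least between animals. At 1 day after repeated exposure it had 59.2, 79.1 and 83.8 CPM in oil vapor lungs, against 81.2, 87.1 and 88.8 CPM in air lungs. Animal 43 was again lowest, and 4 of the 6 oil vapor values were under the lowest air value. The log2 fold change was -0.11 (SE 0.06, adjusted p = 0.567), or -0.13 (adjusted p = 0.325) without animal 43, and its other 3 values lay between -0.03 and 0.03 (SE 0.05 to 0.06). Tjp1 lay between 0.00 and 0.07 (SE 0.06 in each case). No member was called in the difference of the oil vapor effect between 28 days and 1 day by edgeR, DESeq2 or limma-voom, and 0 of 7 lay under the threshold before adjustment. For Cldn18 this difference was -0.06 (SE 0.15) after repeated and 0.02 (SE 0.17) after single exposure, and edgeR called 0% of all genes on either schedule.

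**Figure D3:**
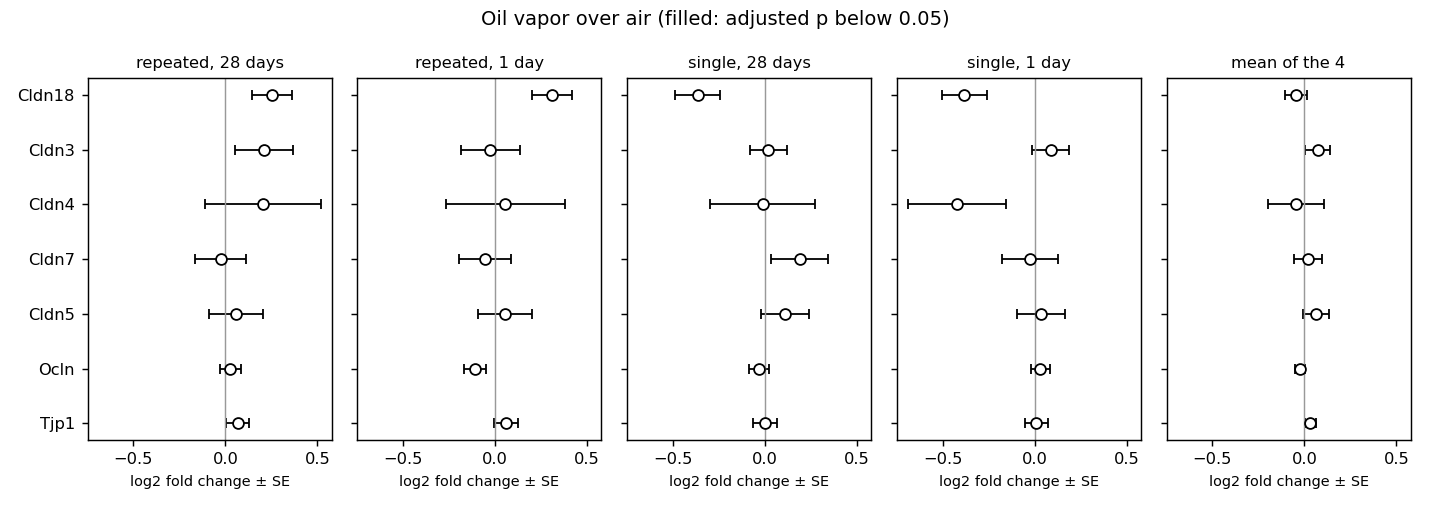
Log2 fold change of oil vapor over air (horizontal axis, ± SE) for the 7 members (vertical axis), with a panel for each schedule and time and one for the mean of the 4. No point is filled, since none passed the test; Cldn18 lies at 0.25 and 0.31 after repeated and at -0.37 and -0.38 after single exposure.

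**Figure D4:**
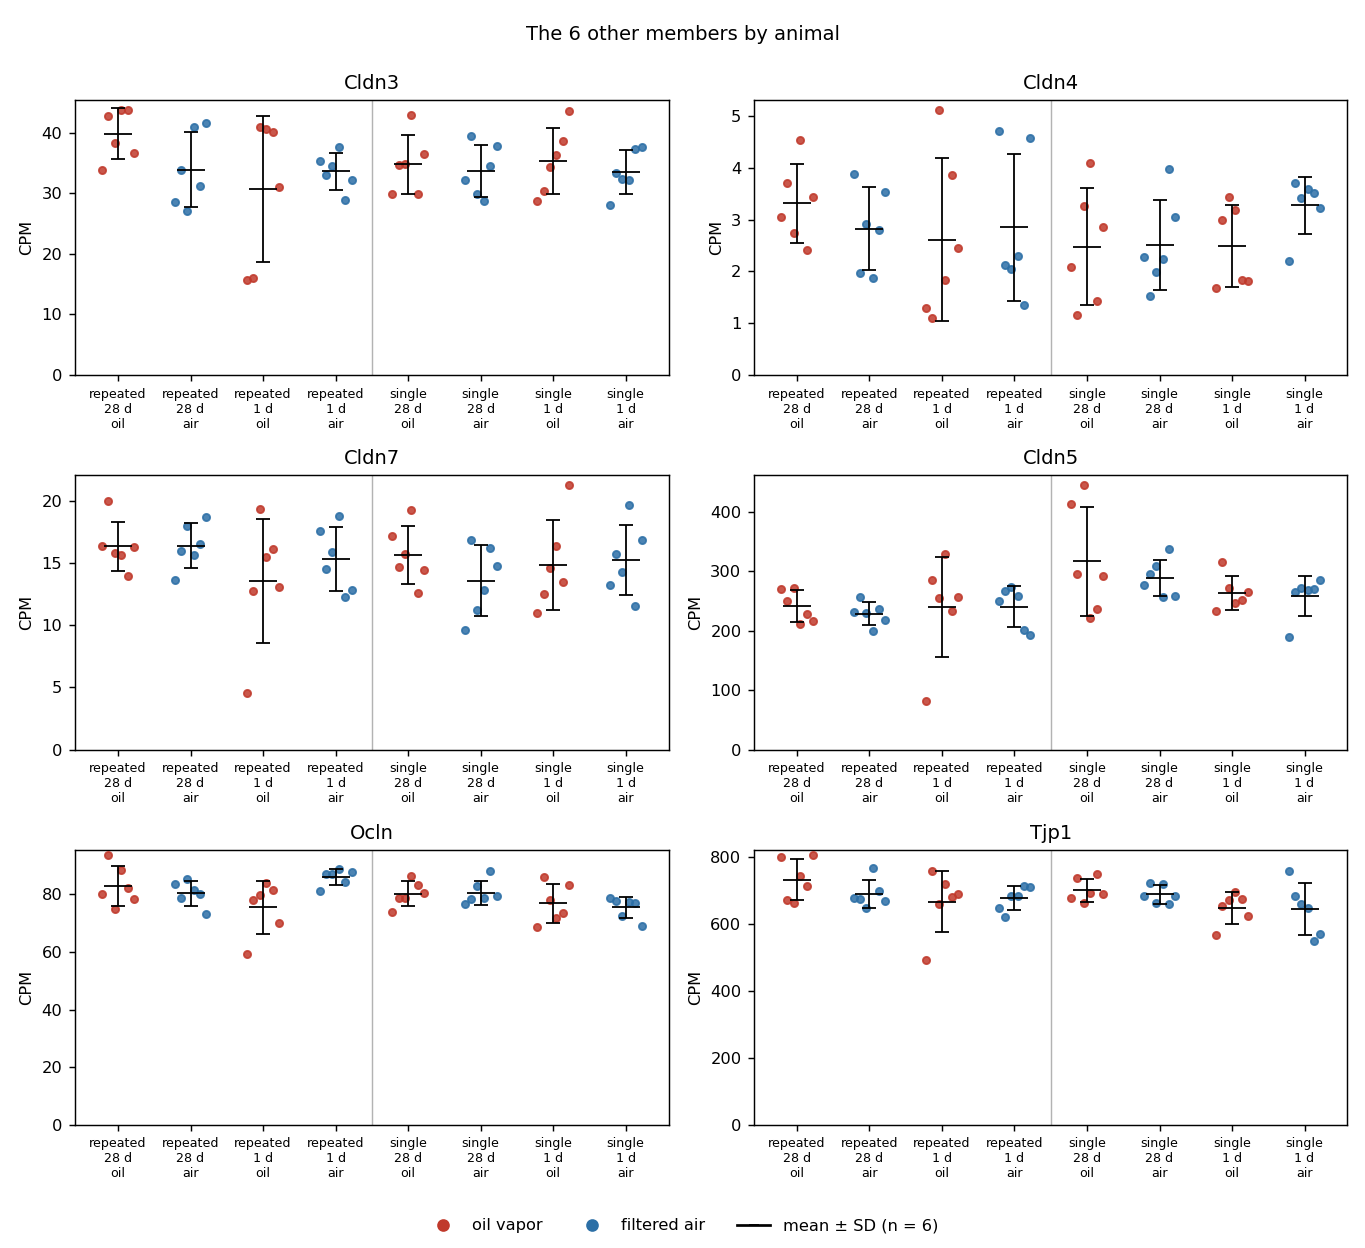
Levels of the other 6 members in CPM (vertical axis) in each animal by group (horizontal axis), with bars for the mean ± SD of 6 animals. Animal 43 is the lowest point of the repeated oil vapor group at 1 day for Cldn3, Cldn7, Cldn5, Ocln and Tjp1.

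Across the 8 groups, the mean of Cldn18 spanned 1.76-fold, from 246 ± 10.4 CPM in repeated air lungs at 1 day to 434 ± 55.1 CPM in repeated oil vapor lungs at 28 days. The order between them was repeated oil vapor at 1 day (291 CPM), single oil vapor at 1 day (294 CPM), single oil vapor at 28 days (307 CPM), repeated air at 28 days (359 CPM), single air at 1 day (385 CPM) and single air at 28 days (390 CPM). No 2 neighbours in that order differed beyond the larger of their SDs. Neighbours in a sorted order lie close to each other, so this describes the steps only and does not show that groups were alike. Group means spanned 1.39-fold for Cldn5, 1.34-fold for Cldn4, 1.3-fold for Cldn3, 1.21-fold for Cldn7 and 1.14-fold for both Ocln and Tjp1, and neighbours in their orders did not differ beyond the SD either. Within groups, the log2 level varied between animals with an SD of 0.085 for Ocln and 0.107 for Tjp1, the genes of proteins common to junctions of many cell types. The SD was 0.214 for Cldn18, 0.258 for Cldn3, 0.275 for Cldn5 and 0.294 for Cldn7, and 0.507 for Cldn4 with its few counts.

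Some members varied together between animals. Of 21 pairs, compared over 48 libraries as log2 CPM less the group mean, 3 had a Pearson r that passed permutation tests adjusted over the pairs. For Cldn3 and Cldn7, r was 0.536 and Spearman's rho 0.565. Their permutation p was 0.00472 for r and 1.2e-04 for rho, which became 0.0439 and 0.00252 after adjustment. Leaving out the 2 farthest libraries gave r = 0.568 and leaving out animal 43 gave 0.483, and r was 0.543 in the repeated and 0.557 in the single schedule. Group means were not taken anew when libraries were left out, here and below. Such r values can therefore still carry the libraries left out, and they do not show that a correlation holds without them. For Cldn18 and Tjp1, r was 0.492 and rho 0.5 (permutation p 0.00311 and 0.00155, adjusted to 0.0439 and 0.0163). Here r was 0.513 without the 2 farthest libraries, 0.298 in the repeated and 0.635 in the single schedule. For Cldn18 and Cldn7, r was 0.375 and rho 0.367 (permutation p 0.00627 and 0.0136, adjusted to 0.0439 and 0.0717). Its r was 0.393 without the 2 farthest libraries, 0.419 in the repeated schedule (0.269 without animal 43) and 0.341 in the single schedule. Cldn18 and Cldn3, both claudins of the alveolus, had r = 0.039 and rho = 0.032 (permutation p 0.804 and 0.844), and the r of Ocln with every other member lay between -0.229 and 0.102. The scaling bore on these values. With levels scaled to library totals, r was above 0 for 20 of 21 pairs, against 12 of 21 with TMM factors. It was then 0.662 for Cldn3 with Cldn7, 0.633 for Cldn18 with Tjp1, and between 0.232 and 0.513 for Ocln with the other members.

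**Figure D5:**
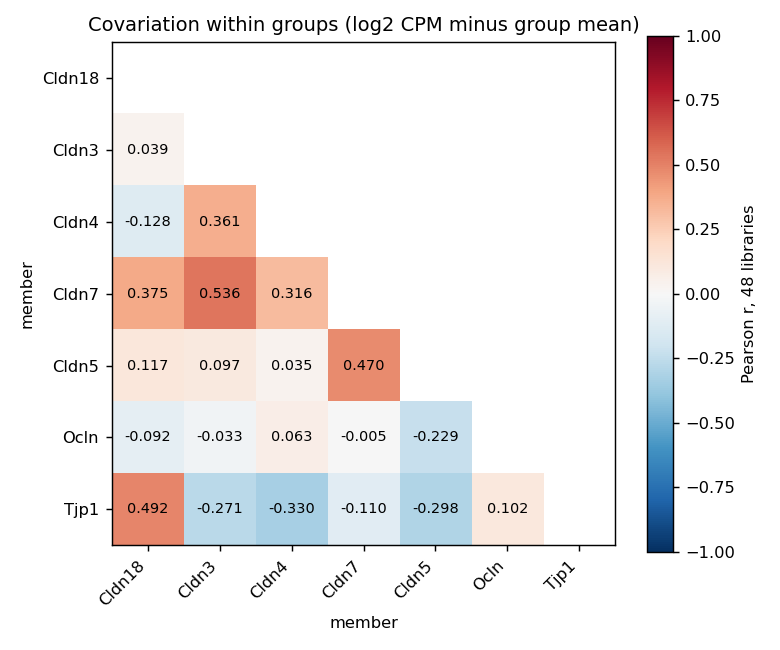
Pearson r between members (both axes) over 48 libraries, as log2 CPM less the mean of the group, with the value in each cell and on the color scale. Cldn3 with Cldn7 (0.536) and Cldn18 with Tjp1 (0.492) are the highest, and Cldn4 with Tjp1 (-0.330) the lowest.

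Against summed marker levels, scaled like the members to library totals and adjusted over 21 comparisons, Cldn3 went with the type 2 markers, at r = 0.769 and rho = 0.558 (permutation p 5.9e-04 and 8.8e-04, adjusted to 0.0031 and 0.00462). Its r was 0.626 without the 2 farthest libraries, 0.827 in the repeated schedule without animal 43 and 0.292 in the single schedule. In this paragraph too, group means still included the libraries left out, and only the r of the single schedule is free of animal 43. Cldn7 also went with type 2 markers, at r = 0.711 and rho = 0.473 (permutation p 8.8e-04 and 0.00294, adjusted to 0.0037 and 0.0123). Its r was 0.409 without the 2 farthest libraries, 0.578 in the repeated schedule without animal 43 and 0.355 in the single schedule. Cldn18 went with type 1 markers at r = 0.658 and rho = 0.557 (permutation p 5.0e-05 and 1.8e-04, adjusted to 3.5e-04 and 0.00189). Its r was 0.537 without the 2 farthest libraries, 0.490 in the repeated schedule without animal 43 and 0.564 in the single schedule. With the endothelial markers, Cldn18 had r = 0.682 and rho = 0.679, each at a permutation p of 1e-05 (adjusted 2.1e-04), which is the lowest value that 100000 draws allow. That r was 0.562 without the 2 farthest libraries, 0.390 in the repeated schedule without animal 43 and 0.800 in the single schedule. Tjp1 had r = 0.705 and rho = 0.514 with endothelial markers (permutation p 4.0e-05 and 7.6e-04, adjusted to 3.5e-04 and 0.00462), and r was 0.525 without the 2 farthest libraries. With type 1 markers it had r = 0.652 and rho = 0.413 (permutation p 0.00135 and 0.00787, adjusted to 0.00472 and 0.0275), with r = 0.414 without the 2 farthest. Within schedules, the endothelial r of Tjp1 was 0.517 in the repeated one without animal 43 and 0.592 in the single one, and its type 1 r was 0.355 and 0.513. Cldn5 and the endothelial markers did not pass, at r = 0.737 and rho = 0.359 (permutation p 0.0256 and 0.0426, adjusted to 0.0769 and 0.112). That r was 0.391 without animal 43 and 0.275 without the 2 farthest libraries, and it was 0.704 in the repeated schedule without animal 43 and 0.055 in the single schedule. Ocln passed with none of the 3 lists, at an adjusted p of at least 0.105. Correlations with marker sums were not computed with TMM factors. Among member pairs, library totals gave r above 0 for 20 of 21, against 12 of 21 with TMM factors. The part of this scaling in the marker correlations was not tested.

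The genes whose levels were most like each member, by Pearson r over the same 48 libraries among 11292 genes, are given as a description. For Cldn18 they were Atp6v0c (0.823), a subunit of the proton pump of acid vesicles, the extracellular matrix gene Ecm1 (0.819) and Lhfp (0.816). Each of these was called in some, but not all, of the comparisons that called Cldn18. The schedule difference averaged over both times was 0.49 (SE 0.11, adjusted p = 0.0295) for Atp6v0c, 0.75 (SE 0.18, adjusted p = 0.0473) for Ecm1 and 0.31 (SE 0.10, adjusted p = 0.216) for Lhfp. At 28 against 1 day in repeated air lungs Atp6v0c rose by 0.58 (SE 0.11, adjusted p = 0.0207), while Ecm1 at 0.58 (SE 0.18) and Lhfp at 0.38 (SE 0.09) did not pass. In repeated oil vapor lungs, Atp6v0c at 0.26 (adjusted p = 0.271), Ecm1 at 0.52 (adjusted p = 0.166) and Lhfp at 0.20 (adjusted p = 0.275) did not pass. The change with time differed between schedules by 0.38 (adjusted p = 0.0335) for Atp6v0c and by 0.35 (adjusted p = 0.0429) for Lhfp, but the 0.31 (adjusted p = 0.356) of Ecm1 did not pass. For Cldn3 the most alike were the surfactant protein gene Sftpb (0.750), the lysosomal sterol carrier gene Npc2 (0.746) and the actin-capping gene Capg (0.726). For Cldn7 they were Abca2 (0.758), the laminin chain gene Lamb2 (0.749) and Pwwp2b (0.738), with 0.639, 0.619 and 0.595 without animal 43. For Cldn4 they were the glucose transporter gene Slc2a1 (0.647), Pi16 (0.627) and Gabrp (0.623). For Cldn5 they were the endothelial adhesion gene Icam2 (0.830), Arap3 (0.816) and Kank3 (0.815), with 0.732, 0.700 and 0.699 without animal 43. The values without animal 43 used group means that still included it. For Tjp1 they were Phactr2 (0.808), the elongation factor gene Supt6h (0.776) and the kinesin-binding Ktn1 (0.769). For Ocln the highest were Mdm2 (0.522), Decr1 (0.516) and Cep162 (0.516). An r of 0.5 or more in size was found with 0.0886% of those genes for Ocln, 1.02% for Cldn4, 3.78% for Tjp1, 4.82% for Cldn3, 5.76% for Cldn18, 21.3% for Cldn7 and 21.8% for Cldn5.

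The rest of the junction was described with 87 other genes of the count tables in 6 lists, of which 71 were tested. None of the 71 passed in any of the 4 comparisons of oil vapor with air by edgeR, DESeq2 or limma-voom. Before adjustment, 3 and 8 of the 71 lay under the threshold at 28 days and 1 day after repeated exposure, where 4.74% and 9.43% of all genes did. After single exposure 7 and 9 of the 71 did, where the shares of all genes were 8.21% and 10.1%. The median log2 values of the 71 were 0.04 and -0.06 at 28 days and 1 day after repeated exposure and 0.00 at both times after single exposure, against 0.00 to 0.02 over all genes. The smallest p belonged to Marveld3, a tight junction protein related to occludin, with 0.58 (SE 0.15, adjusted p = 0.235), and the adaptor Cgnl1 (paracingulin), with -0.20 (SE 0.07), at 1 day after single exposure. At 28 days after single exposure they were the scaffold Mpdz at 0.13 (SE 0.05) and Ybx3 at -1.30 (SE 0.52). Ybx3 had 92.5 to 254 CPM in these oil vapor and 212 to 797 CPM in these air lungs. Their erythroid sums were 1128 to 2592 and 2267 to 8794 CPM, and a link of Ybx3 with erythroid content was not tested. After repeated exposure the genes with the smallest p were the virus receptor Cxadr at -0.22 (SE 0.07) and the kinase Stk11 at 0.32 (SE 0.10) at 1 day, and Marveld2 (tricellulin) at 0.40 (SE 0.15) and Jup (plakoglobin) at 0.29 (SE 0.12) at 28 days, none of which passed. In the mean over the 4 pairs, Cldn8 at -0.25 (SE 0.11) and the kinase Prkci at -0.06 (SE 0.03) did not pass either.

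With time, other junction genes were called where no member was. At 28 against 1 day in single oil vapor lungs, 11 of 71 genes rose (15.5%) and 0 fell, where 4.45% of all genes rose and 4.98% fell. Without animal 31 the count was 7. The 11 included 5 of 20 scaffold and adaptor genes, led by Inadl (Patj) at 0.26 (SE 0.04, adjusted p = 3.8e-04) and Mpp5 (Pals1), its partner in apical polarity, at 0.42 (SE 0.08, adjusted p = 0.00188). The adhesion molecule gene Jam2 rose by 0.29 (SE 0.06) and Cgnl1 by 0.28 (SE 0.06). In single air lungs 4 rose (5.63%, against 1.01% of all genes) and 2 fell (2.82%, against 2.24%). The 6 calls became 2 without animal 4, 10 or 20 and with only the 12 libraries compared. Among the 6 were Inadl at 0.19 (SE 0.04) and Mpp5 at 0.32 (SE 0.08), with the scaffold Magi2 at -0.65 (SE 0.14, adjusted p = 0.00605) and the myosin kinase Mylk at -0.20 (SE 0.05). After repeated exposure 0 of 71 passed in either treatment by edgeR. Before adjustment, 24 of the 71 in oil vapor and 11 in air lungs lay under the threshold, where 14.9% and 10.7% of all genes did. The number of all genes called depended on the fit, as did the count among the 71. In oil vapor lungs it was 8 with all 48 libraries, 3 without animal 43 and 2 without animal 47, and in air lungs 1 with the 12 libraries compared and 1 with all 48. DESeq2 called 6 of the 71 in oil vapor and 1 in air lungs, beside 311 and 191 of all genes, and limma-voom called 4 and 2, beside 223 and 268. The smallest p there belonged to Cgn (cingulin) at 0.34 (SE 0.08, adjusted p = 0.066) and Cgnl1 at 0.33 (SE 0.08) in oil vapor lungs, and to Cgnl1 at 0.33 (SE 0.08) and Jam3 at -0.34 (SE 0.10) in air lungs. Tested between schedules, where 4.56% of all genes were called, the change with time differed for 3 of 71 genes, Mpp5 by -0.33 (SE 0.08, adjusted p = 0.0142), Cldn1 by -0.86 (SE 0.23, adjusted p = 0.0199) and Cldn11 by 0.70 (SE 0.19, adjusted p = 0.0263), repeated minus single.

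Among 17 other claudins, 7 had enough counts to be tested, namely Cldn1, Cldn8, Cldn10, Cldn11, Cldn12, Cldn15 and Cldn19. Cldn12 had a mean of 26 CPM over all libraries, and Cldn1 rose by 0.81 (SE 0.25, adjusted p = 0.0387) at 28 against 1 day in single oil vapor lungs. Cldn24 was at 0 counts in all libraries, and Cldn14 and Cldn16 had 1 count each in all 48.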

How the data were processed

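Total RNA from a piece of lung (1 µg per animal) was sequenced as ribosome-depleted, stranded libraries, per the labels' protocols. The submitters' processing notes name HISAT2 2.1.0 and HTSeq 0.6.1, the trimmer Trimmomatic 0.35, and bcl2fastq 2.19 with SAMtools 1.8, beside the rat assembly Rnor_6.0. Which annotation was used and whether reads were counted by strand is not given in the sources used here. Sequences and their positions come from RefSeq on GRCr8, another assembly than that of the counts.

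The authors deposited raw counts per gene symbol in a table for each schedule, and each of the 48 column names fitted the title of 1 animal. The description of animal 32 names the table of the other schedule, and its title and column, which place it in single exposure, were followed. Library totals averaged 5.18 ± 1.02 M counts (SD, n = 48). The floor of 3 counts covers counting error only, because amplified reads that carry no molecular identifier can stem from 1 molecule. Animals were housed in pairs per the labels, which do not tie a housing pair to samples. The tests therefore treat animals as independent, and any likeness of animals housed together was not modelled.

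Groups came from the labels. Contrasts within a schedule used its 24 libraries and contrasts between schedules all 48, in group-means models in edgeR 4.0.16 (R 4.3.3) with TMM factors, filterByExpr and the quasi-likelihood test, two-sided, with Benjamini-Hochberg adjustment over all genes and a threshold of 0.05. The SE is the absolute log2 fold change divided by the square root of F, and it is approximate. Correlations used log2 CPM with a prior count of 1, less the group mean, and 100000 permutations within groups, two-sided. The script was tested on simulated data. Alternatives were RLE size factors, library totals, no filter, DESeq2 1.42.0, limma-voom (limma 3.58.1) with sample weights, fits on the 12 libraries of a comparison or on all 48, leaving out each animal, and, added after the data were seen, a block on animal pairs between schedules. Other junction genes were named by rule: the 4 with the smallest p among those called in a comparison or, where none was, the 2 with the smallest p. For the most alike genes the 3 with the highest r were taken among those with a mean of at least 5 CPM. Pdpn was named as the 1 called gene of its list, and the claudins of the last paragraph after their counts were seen. The members, gene lists and tests were chosen with earlier results of these data known.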

Additional observations from a re-analysis of the deposited data

Results flagged for a closer look

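Chance marks about 1 in 20 groups as holding a sample far from the others, and 2 of 56 checks of a member in a group were so marked, both in animal 1 of the single air group at 1 day. Cldn5 was at 189.8 CPM in that animal and at 265 to 285 CPM in the other 5. Cldn4 was at 2.21 CPM in it and at 3.22 to 3.71 CPM in the others.

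Effects that differed between groups by a test were those of Cldn18. The oil vapor effect differed by 0.6566 on the log2 scale between repeated and single exposure, averaged over both times. The change from 1 to 28 days differed by 0.5085, repeated minus single exposure, averaged over both treatments, and kept its call in each of 5 other settings (0.50 to 0.52) and without each of the 48 animals in turn (0.45 to 0.56, adjusted p = 0.00263 to 0.0144 by edgeR's quasi-likelihood test). Both tests were added after the values were seen.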

How the results depend on the processing

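Groups share no replicate numbers, so no fit within a schedule could be paired. A replicate block on the 24 animal pairs with the same place in numeric order, chosen after the data were seen and not given by the labels, left the calls between schedules as they were. Cldn18 had 0.6597 for the oil vapor effect averaged over both times, with 0.6542 at 28 days and 0.6651 at 1 day, and 0.4999 for the change with time. Among the members, the calls that changed were those of Cldn18. Of the other junction genes, the calls for 28 against 1 day ranged from 7 to 14 (11) in single oil vapor, 2 to 8 (6) in single air, 0 to 8 (0) in repeated oil vapor and 0 to 2 (0) in repeated air lungs, and from 3 to 5 (3) in the difference between schedules. For 28 against 1 day after repeated exposure, 0 of 7 members were called with library totals alone, in oil vapor and in air lungs, and 0 of 7 with only the 12 libraries compared in oil vapor lungs, in place of 1. Leaving out 1 animal gave 0 to 1 called members in both. The schedule difference of the oil vapor effect at 1 day had 1 called member with DESeq2, and 0 to 1 when an animal was left out. The number of all genes called moved more. At 28 against 1 day after repeated exposure it was 45 in oil vapor lungs, with 0 (12 libraries compared) to 430 (all 48), and 49 in air lungs, with 2 (without animal 36 or 38) to 268 (limma-voom). In single air lungs it was 481, with 315 (without animal 10) to 579 (DESeq2). For oil vapor against air it reached 137 at 28 days and 108 at 1 day after repeated exposure, against 0 and 1, and 24 and 17 after single exposure, against 0 and 0. For the schedule difference averaged over both times it was 57, with 18 (library totals) to 224 (limma-voom), at 1 day alone 7, with 2 to 43, and for the mean over the 4 pairs 6, with up to 130. For the change of the oil vapor effect with time it was 0, with up to 47 after repeated and 21 after single exposure (DESeq2).

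Values that changed sign lay near 0, and the cause was not tested. For oil vapor against air they were, at 28 days after single exposure, Cldn4 with library totals (0.0177) and Tjp1 with limma-voom (-0.0028), with the 12 libraries compared (-0.0021) and with all 48 (-0.0031), and, at 1 day after repeated exposure, Cldn3 (0.1009) and Cldn7 (0.0069) with limma-voom and Tjp1 with library totals (-0.0202). With limma-voom, Cldn18 at 28 against 1 day was -0.016 in single oil vapor lungs, Cldn3 was -0.0001 in repeated air lungs, and the change of the oil vapor effect on Cldn18 with time after single exposure was -0.074. After repeated exposure that change was 0.0271 with library totals.

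Leaving out 1 animal turned the sign of the following log2 values, given from the lowest to the highest. For oil vapor against air at 28 days after repeated exposure, these were Cldn7 (-0.0871 to 0.0233) and Ocln (-0.0077 to 0.0557). At 1 day after repeated exposure they were Cldn3 (-0.1105 to 0.1054), Cldn4 (-0.2415 to 0.2492), Cldn5 (-0.051 to 0.1793) and Cldn7 (-0.1609 to 0.0142). At 28 days after single exposure they were Cldn3 (-0.0434 to 0.0639), Cldn4 (-0.207 to 0.1472), Cldn5 (-0.006 to 0.1985) and Tjp1 (-0.0233 to 0.0205). At 1 day after single exposure they were Cldn5 (-0.0433 to 0.0622), Cldn7 (-0.1602 to 0.0639), Ocln (-0.0023 to 0.0524) and Tjp1 (-0.0382 to 0.0585). For 28 against 1 day in repeated oil vapor lungs, the value was that of Cldn5 (-0.1588 to 0.0787), and in repeated air lungs they were Cldn3 (-0.0213 to 0.1065), Cldn4 (-0.0919 to 0.2605) and Cldn5 (-0.0851 to 0.0067). In single oil vapor lungs they were Cldn18 (-0.0432 to 0.1232), Cldn3 (-0.1054 to 0.0248), Cldn4 (-0.1841 to 0.1713) and Cldn7 (-0.0116 to 0.1864), and in single air lungs Cldn18 (-0.029 to 0.0985) and Cldn3 (-0.0186 to 0.0656).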
